A study of Mus musculus with 8 samples.

Results

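The heat shock protein genes described here are *Hspa1a*, *Hspa1b*, *Hspa8*, *Hsph1*, *Dnajb1*, *Hsp90aa1*, *Hsp90ab1*, *Hspb1*, *Hspd1* and *Hspe1*. They were taken by symbol from the table of liver RNA counts and are 10 of its 19267 genes. All 10 were among the 13993 genes that passed the filter on low counts. The set was chosen by the measured level of *Hspa1b*, which was lower in Elf4-/- than in WT liver under alcohol. The comparison of the genotypes under alcohol is therefore given below as a description, without a test. The tests concern comparisons that do not use that difference: the diets averaged over both genotypes, and the genotypes under control diet. The average includes the same EtOH libraries, but through their mean and not through their difference. For *Hspa1b* it is therefore not independent of the libraries by which the gene was picked. The diets within each genotype share 2 libraries each with the genotype comparison under alcohol, so for *Hspa1a* and *Hspa1b* they are given as values only.

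Liver RNA came from male C57BL/6 mice of 9 weeks that were given a Lieber-DeCarli liquid diet for 21 days. Elf4-/- denotes mice with floxed *Elf4* alleles (Elf4fl/fl-Villin-Cre), in which Cre recombinase driven by the villin promoter deletes this transcription factor gene in the intestinal epithelium and not in the liver, and WT denotes wild type mice, which per the study's methods were Cre mice. The diet contained alcohol at 5% (w/v) in the EtOH groups, and maltose dextrin with the same calories in the Control groups, which gave 4 groups of 2 libraries, WT-EtOH and Elf4-/--EtOH beside their controls WT-Control and Elf4-/--Control. The labels do not say whether the libraries of a group came from separate mice, so the p-values measure the spread between libraries, which may be technical.

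Heat shock proteins are molecular chaperones, which bind unfolded proteins and help them to fold, to refold after damage or to be degraded. In stressed cells the transcription factor HSF1 forms trimers, binds heat shock elements (inverted repeats of a short GAA unit) in the promoters of these genes and raises their transcription. HSP70 proteins bind and release unfolded chains in an ATP-driven cycle, J-domain proteins start that cycle and nucleotide exchange factors end it. HSP90 proteins act later, on nearly folded clients such as kinases and nuclear receptors. Small heat shock proteins hold damaged proteins in a soluble state, and the HSP60 and HSP10 chaperonin folds proteins imported into mitochondria. In the liver, chaperone genes respond to fever, toxins and oxidative stress, and several of them also vary with the time of day and with feeding.

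The promoter sequences are shown because they hold, or lack, the letters of the heat shock element in the genes that the results turn on. They are RefSeq promoter windows of build GRCm38.p6, which run from 250 bases before to 50 bases after a gene's start. Windows were found for 7 of the 10 genes and not for *Hspa8*, *Hsp90aa1* and *Hsp90ab1*. Each was searched on both strands for 2 inverted units, that is GAA and TTC, in either order, with any 2 bases between them, and for 3 alternating inverted units, a longer match that contains the first. Of all 32851 windows, 15.06% held 2 inverted units and 0.6% held 3. The promoter of *Hspa1b*, on the minus strand at chr17:34959239-34959488, is given in full up to the base before the start, with the match in capitals.
Hspa1b: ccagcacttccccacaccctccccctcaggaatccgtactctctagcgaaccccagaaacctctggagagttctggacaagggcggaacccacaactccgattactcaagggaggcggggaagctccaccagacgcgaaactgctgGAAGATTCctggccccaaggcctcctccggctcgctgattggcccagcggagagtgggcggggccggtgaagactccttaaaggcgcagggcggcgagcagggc
The match of *Hspa1b* began 104 bases before its start. The same 250 bases of *Hspa1a* differed from these at 3 positions and held the same match at the same distance. The stretches of 3 further genes follow, with the matches in capitals. That of *Hspb1* lies on the plus strand at chr5:135887787-135887844, that of *Hsph1* on the minus strand at chr5:149636351-149636380, and that of *Hspe1* on the plus strand at chr1:55088053-55088082.
Hspb1: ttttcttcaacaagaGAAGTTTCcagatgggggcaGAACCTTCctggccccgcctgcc
Hsph1: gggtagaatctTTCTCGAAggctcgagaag
Hspe1: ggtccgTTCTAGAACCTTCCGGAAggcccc
*Hspb1* held 2 separate matches, at 117 and 97 bases before its start. The match shown of *Hsph1* began 33 bases before the start of its first window and, by the GENCODE M21 annotation, lies within an exon of *Hsph1*. A match of 3 alternating units, not shown, began 36 bases after that start. The capitals of *Hspe1* are 4 alternating units, in which 2 matches of 3 units overlap, and began 89 bases before the start of that gene. The stretch is shared with *Hspd1*, which runs the other way on the minus strand, and where the annotation places it within an exon of *Hspd1*. Neither of the windows of *Dnajb1* held a match. A match is a description of letters and not evidence of a bound factor.

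The 10 genes lie on 6 chromosomes in the GENCODE M21 annotation of GRCm38, and all are annotated as protein coding. *Hspa1b* (chromosome 17, 34956436 to 34959238, minus strand) and *Hspa1a* (chromosome 17, 34969190 to 34972156, minus strand) are neighbours with 9951 bases between them. Of all 150-base windows of their transcripts, 46.0% of *Hspa1a* and 40.5% of *Hspa1b* were identical to another gene's transcript, and 1074 windows were identical between the pair. The division of reads between *Hspa1a* and *Hspa1b* is therefore uncertain. Sequence shared with other genes or pseudogenes made up 56.0% of the windows of *Hspa8*, 36.6% of *Hspb1*, 36.2% of *Hsp90aa1*, 18.6% of *Hspd1* and 14.1% of *Hspe1*, and 0% of *Hsph1*, *Dnajb1* and *Hsp90ab1*. *Hspd1* (chromosome 1, 55077835 to 55088243, minus strand) and *Hspe1* (chromosome 1, 55088132 to 55091307, plus strand) are transcribed in opposite directions and share 112 bases of exon. Whether the counting used strand is not given in the sources used here, so reads in those bases cannot be told apart. *Hspa1a* likewise shares 564 exon bases with *Gm20481* on the other strand.

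Library totals were 6171051 to 9157362 counts, and the common biological coefficient of variation was 22.68%. Values are CPM, counts relative to the library total scaled by TMM factors. A library of the Elf4-/--EtOH group, replicate 1, stood apart from all others on the second principal component, which held 12.94% of the variance, and values of the 10 genes are given with and without it where that changes a call. The targeted gene *Elf4* had 6 to 36 counts in every library, with overlap between the genotypes. As the deletion is in the intestinal epithelium, liver counts of *Elf4* do not check it. Hepatocyte markers summed to at least 29705 CPM in every library. The value of a gene in whole liver does not tell fewer cells of a type from less RNA per cell.

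By level per kb of annotated exon in WT-Control, where all exons of a gene's transcripts were merged, *Hspa8*, the constitutive HSP70 of the cytosol, led with 166 ± 2.43 CPM per kb (SD, n = 2). *Hsp90ab1*, the constitutive HSP90, followed with 81.3 ± 8.01 CPM per kb. The next 3 genes, *Hsp90aa1* (41.2 ± 15.6), *Hspe1* (39.6 ± 13.8) and *Hspd1* (38.1 ± 10.6 CPM per kb), were not separated from each other by their spread. *Hspb1* stood at 9.98 ± 1.999 CPM per kb. *Hspa1b* (3.30 ± 0.623), *Dnajb1* (3.18 ± 0.624) and *Hsph1* (2.26 ± 0.436 CPM per kb) formed a lower tier, in which neighbours differed by less than their summed SDs. *Hspa1a* was lowest, at 0.437 ± 0.00410 CPM per kb, from 7 counts in each library. In WT-EtOH the order at the top was kept by *Hspa8* (307 ± 4.92 CPM per kb) and *Hsp90ab1* (193 ± 15.02 CPM per kb), whereas *Hspa1b* had reached 23.8 ± 0.656 CPM per kb, above *Hsph1* (9.88 ± 2.13) and *Dnajb1* (9.53 ± 0.477 CPM per kb). In Elf4-/--EtOH, *Hspa1b* stood at 3.62 ± 2.31 CPM per kb, beside 5.42 ± 0.876 for *Hsph1* and 4.64 ± 2.28 for *Dnajb1*. The lengths were not corrected for the sequence shared with other genes given above, and the order depended on the length used. Per kb of the longest coding transcript, a length chosen after seeing the data, *Hspa8* had 299 ± 4.36 CPM and *Hsp90ab1* 96.7 ± 9.54 in WT-Control. *Hspe1* then stood at 75.4 ± 26.2, above *Hspd1* at 41.5 ± 11.6, and *Hsph1* at 4.32 ± 0.833, above *Dnajb1* at 3.40 ± 0.668 and *Hspa1b* at 3.30 ± 0.623. In WT-EtOH, *Hspe1* (231 ± 11.7) and *Hsp90ab1* (229.5 ± 17.9 CPM per kb) were then not separated by their spread.

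To ask whether alcohol feeding changed hepatic expression of the heat shock proteins, EtOH was compared with Control over both genotypes. The diet raised 8 of the 10 genes and lowered 0, at an adjusted p under 0.05 (quasi-likelihood test of edgeR, with p-values adjusted by Benjamini-Hochberg over the 13993 genes). Of all genes tested, 14.1% were higher and 13.8% were lower by the same rule. The 8 genes were *Hspb1*, *Hspa1b*, *Hspe1*, *Hspd1*, *Hsph1*, *Hsp90aa1*, *Hsp90ab1* and *Dnajb1*, with log2 fold changes from 2.21 down to 0.86. *Hspa1b* is counted with the limit that its EtOH libraries are those by which it was picked. *Hspa8* (0.39 ± 0.25, SE, adjusted p = 0.272) and *Hspa1a* (0.39 ± 0.43, adjusted p = 0.525) did not pass the test. The median log2 fold change was 1.26 for the 10 genes and 0.01 for all genes. Without Elf4-/--EtOH replicate 1, *Hspa8* also passed (0.64, adjusted p = 0.0171), which made 9. *Dnajb1* missed the threshold without WT-Control replicate 1, without either WT-EtOH library or without either Elf4-/--Control library, with adjusted p-values from 0.0550 to 0.0689.

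**Figure D1:**
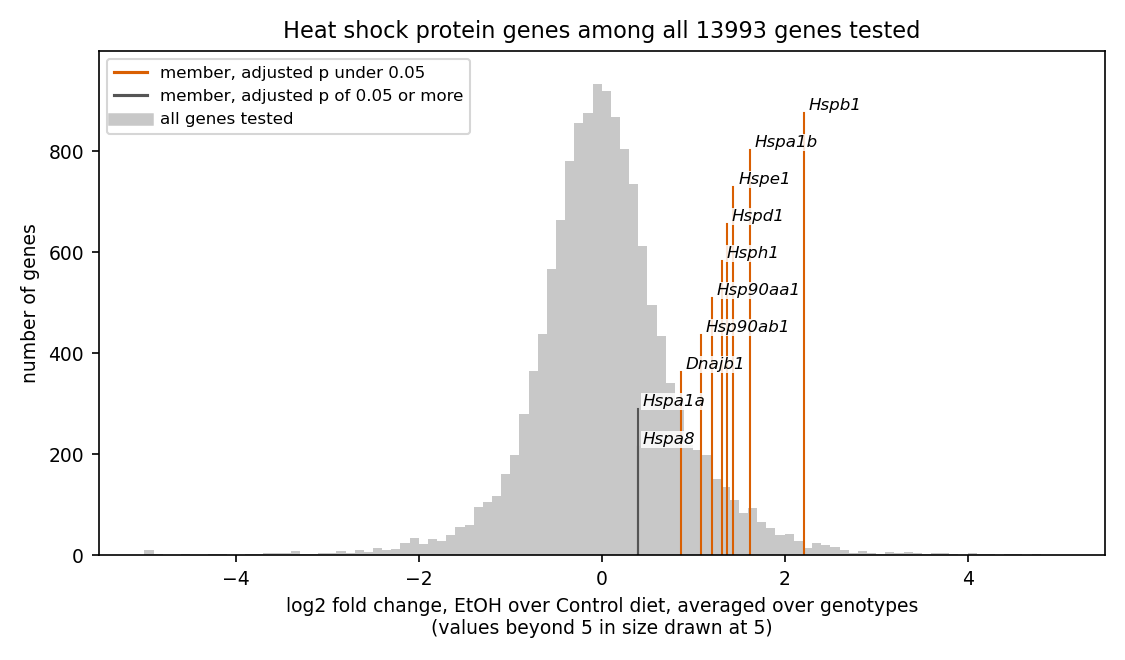
Histogram of the log2 fold change of EtOH over Control, averaged over genotypes, for all 13993 genes tested, with the number of genes on the vertical axis. Vertical lines mark the heat shock protein genes, in orange for an adjusted p under 0.05, and their heights only separate the names. The 8 orange lines run from 0.86 (*Dnajb1*) to 2.21 (*Hspb1*), to the right of most genes, and *Hspa8* and *Hspa1a* share a grey line at 0.39.

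Within each genotype the picture differed by gene. In WT, the diet raised 6 of the 8 genes tested, beside 10.8% of all genes higher and 10.8% lower. Those 6 were *Hspb1*, *Hsph1*, *Hspe1*, *Dnajb1*, *Hspd1* and *Hsp90ab1*. In Elf4-/-, the diet raised 4 of 8, namely *Hspb1*, *Hsp90aa1*, *Hspe1* and *Hspd1*, beside 1.71% of all genes higher and 1.18% lower. The 4 calls in Elf4-/- had adjusted p-values from 0.0383 to 0.0449 and were sensitive to single libraries. No call was left without either WT-EtOH library, without either Elf4-/--Control library or without Elf4-/--EtOH replicate 1, and 3 were left without either WT-Control library. Without Elf4-/--EtOH replicate 2 there were 5 higher, and *Hspa8* was lower (-0.89, adjusted p = 0.0498). Whether the diet acted differently in the 2 genotypes was not tested for these genes, because that difference contains the comparison by which they were picked.

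**Figure D2:**
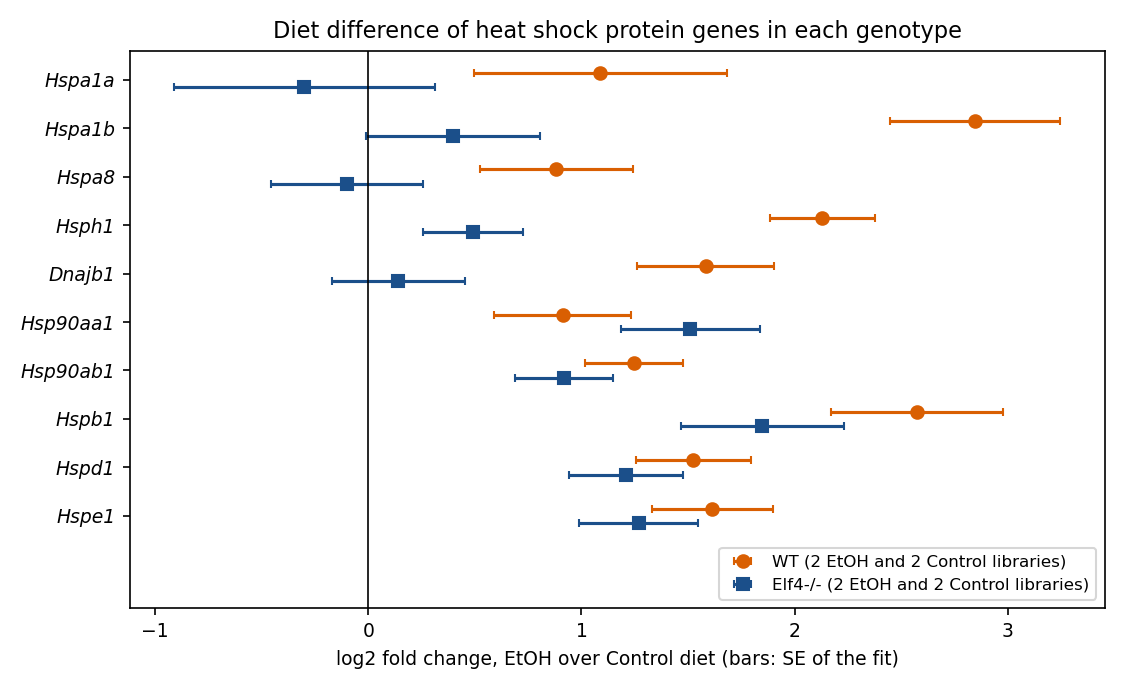
Log2 fold change of EtOH over Control for each heat shock protein gene, in WT (orange circles) and Elf4-/- (blue squares), each from 2 EtOH and 2 Control libraries. Bars are the SE of the fit. The values of *Hspa1b* are 2.85 in WT and 0.40 in Elf4-/-. The gap between the genotypes contains the comparison by which the genes were picked, and was not tested.

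*Hspa1b*, a stress-inducible cytosolic HSP70, had 65.4 and 68.0 CPM in WT-EtOH against 8.02 and 10.5 in WT-Control. In Elf4-/--EtOH it had 5.58 and 14.7, against 5.84 and 9.99 in Elf4-/--Control. Only the WT-EtOH libraries stood apart, and the other 3 groups overlapped each other. The diet averaged over genotypes gave a log2 fold change of 1.62 ± 0.28 (SE, adjusted p = 0.00329), the mean of 2.85 ± 0.40 in WT and 0.40 ± 0.41 in Elf4-/-. With *Hspa1a* and *Hspa1b* summed, the average was 1.51 ± 0.24 (adjusted p = 0.00206). Both averages include the EtOH libraries by which *Hspa1b* was picked, so their p-values are not independent of that choice. *Hspa1a*, its near-identical neighbour, was counted 5 to 26 times per library. It had 2.91 and 2.65 CPM in WT-EtOH against 1.31 and 1.29 in WT-Control, and 1.75 and 0.66 in Elf4-/--EtOH against 1.43 and 1.49 in Elf4-/--Control. The WT-EtOH libraries were again the highest. The diet values were 1.09 ± 0.59 in WT and -0.30 ± 0.61 in Elf4-/-.

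*Hspa8*, which serves folding, transport and uncoating of vesicles in unstressed cells, had 1334 and 1304 CPM in WT-EtOH against 708 and 723 in WT-Control, and 522 and 1256 in Elf4-/--EtOH against 928 and 979 in Elf4-/--Control. The Elf4-/--EtOH libraries lay on both sides of their controls, with replicate 1 the lowest of all 8 libraries. In WT the diet value was 0.88 ± 0.36 (adjusted p = 0.107), and in Elf4-/- it was -0.10 ± 0.36 (adjusted p = 0.901). The WT value passed the test without either Elf4-/--EtOH library, by DESeq2 (adjusted p = 0.0404) and in a fit of the 4 WT libraries alone (adjusted p = 0.0238).

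*Hsph1*, an HSP110 protein that acts as nucleotide exchange factor of HSP70, had 60.8 and 82.7 CPM in WT-EtOH against 18.6 and 14.2 in WT-Control, and 34.9 and 43.9 in Elf4-/--EtOH against 30.8 and 25.2 in Elf4-/--Control. No group overlapped another. The diet raised it 2.48-fold over both genotypes (1.31 ± 0.17, adjusted p = 0.000944) and 4.38-fold in WT (2.13 ± 0.25, adjusted p = 0.00150). In Elf4-/- the value was 0.49 ± 0.23 (adjusted p = 0.263). *Dnajb1*, the J-domain protein HSP40 that starts the HSP70 cycle, had 31.6 and 29.5 CPM in WT-EtOH against 8.76 and 11.6 in WT-Control, and 9.72 and 20.03 in Elf4-/--EtOH against 13.02 and 14.2 in Elf4-/--Control. As for *Hspa8*, the Elf4-/--EtOH libraries lay on both sides of their controls. The diet raised *Dnajb1* 1.82-fold over both genotypes (0.86 ± 0.22, adjusted p = 0.0185) and 2.99-fold in WT (1.58 ± 0.32, adjusted p = 0.00906), with 0.14 ± 0.31 (adjusted p = 0.831) in Elf4-/-. The call in WT was lost without WT-Control replicate 1 (adjusted p = 0.0671), without WT-EtOH replicate 1 (0.0545) and without WT-EtOH replicate 2 (0.0547).

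*Hsp90aa1*, the stress-inducible HSP90, had 312 and 297 CPM in WT-EtOH against 205 and 118 in WT-Control, and 424 and 240 in Elf4-/--EtOH against 121 and 112 in Elf4-/--Control. All 4 EtOH libraries were above all 4 Control libraries. The diet raised it 2.31-fold (1.21 ± 0.23, adjusted p = 0.00460). The value was 1.51 ± 0.33 in Elf4-/- (adjusted p = 0.0420) and 0.91 ± 0.32 in WT (adjusted p = 0.0689). The WT value passed by DESeq2 (adjusted p = 0.0311) and without either Elf4-/--EtOH library (0.0184 and 0.0222). *Hsp90ab1* had 610 and 547 CPM in WT-EtOH against 227 and 261 in WT-Control, and 582 and 488 in Elf4-/--EtOH against 257 and 309 in Elf4-/--Control. Its EtOH and Control libraries did not overlap in either genotype. The diet raised it 2.12-fold over both (1.08 ± 0.16, adjusted p = 0.00163), with 1.25 ± 0.23 in WT (adjusted p = 0.00650) and 0.92 ± 0.23 in Elf4-/- (adjusted p = 0.0607). The Elf4-/- value passed by DESeq2 (adjusted p = 0.00479) and without Elf4-/--EtOH replicate 2 (0.0199).

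*Hspb1*, the small heat shock protein HSP25, showed the largest diet difference of the 10 genes averaged over genotypes, whereas in WT that of *Hspa1b* was larger (2.85 against 2.57). It had 67.0 and 55.7 CPM in WT-EtOH against 11.8 and 8.83 in WT-Control, and 78.3 and 30.5 in Elf4-/--EtOH against 13.2 and 17.0 in Elf4-/--Control. Each EtOH library lay above every Control library. The rise was 4.63-fold over both genotypes (2.21 ± 0.28, adjusted p = 0.000897), 5.96-fold in WT (2.57 ± 0.40, adjusted p = 0.00359) and 3.602-fold in Elf4-/- (1.85 ± 0.38, adjusted p = 0.0383).

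*Hspd1* and *Hspe1* encode HSP60 and its lid HSP10, the mitochondrial chaperonin, and start from a shared promoter region. *Hspd1* had 297 and 282 CPM in WT-EtOH against 80.7 and 121 in WT-Control, and 351 and 236 in Elf4-/--EtOH against 124 and 130 in Elf4-/--Control. *Hspe1* had 172 and 185 CPM in WT-EtOH against 44.0 and 72.7 in WT-Control, and 247 and 163 in Elf4-/--EtOH against 83.2 and 87.1 in Elf4-/--Control. Both genes were higher in every EtOH library than in any Control library. The rise over both genotypes was 2.58-fold for *Hspd1* (1.37 ± 0.19, adjusted p = 0.00122) and 2.71-fold for *Hspe1* (1.44 ± 0.20, adjusted p = 0.00120). In WT the values were 1.52 ± 0.27 and 1.61 ± 0.28 (adjusted p = 0.00549 and 0.00535), and in Elf4-/- they were 1.21 ± 0.27 and 1.27 ± 0.28 (adjusted p = 0.0449 for each).

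**Figure D3:**
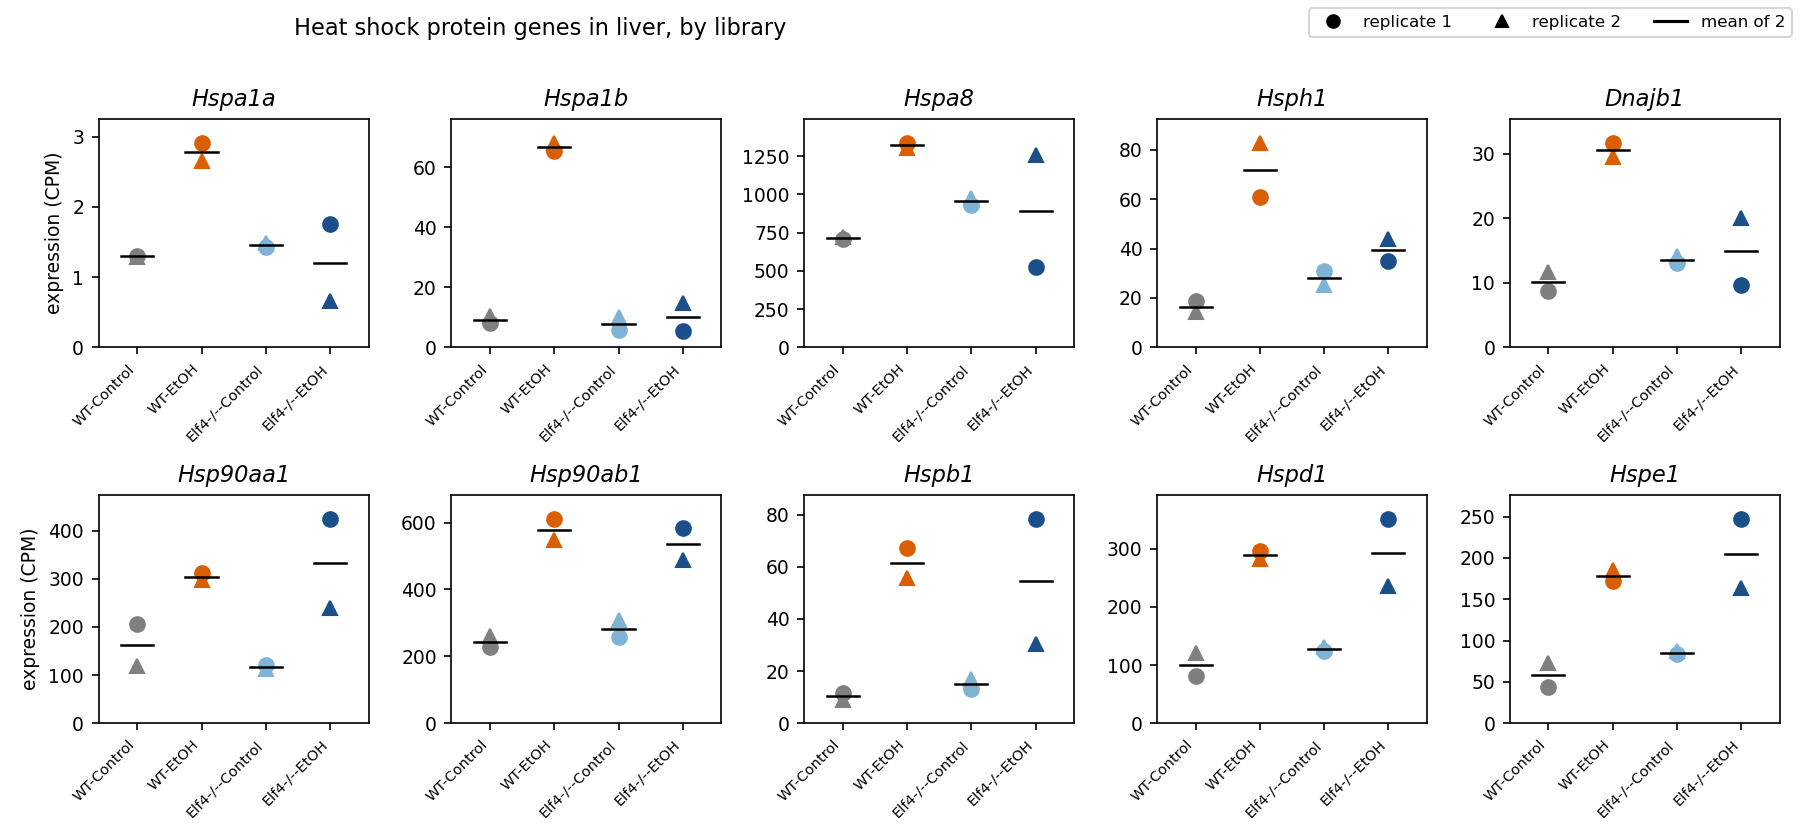
Expression of each heat shock protein gene in TMM-scaled CPM, 1 panel per gene with its own axis from 0, by group. Circles are replicate 1, triangles replicate 2 and lines the mean of 2 libraries. The WT-EtOH points of *Hspa1b* (65.4 and 68.0 CPM) stand above all other groups, and the Elf4-/--EtOH points of *Hspa8* (522 and 1256 CPM) lie on both sides of the Elf4-/--Control points.

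Under control diet, the genotypes were compared in libraries that played no part in the choice of the genes. The spread used by the test came from all 8 libraries, the EtOH libraries included. Elf4-/- differed from WT for 0 of the 10 genes by edgeR's test, and DESeq2 called 0 as well. Of all genes, 0.0143% passed edgeR's test in either direction at the adjusted threshold. A fit of the 4 Control libraries alone also called 0 of the 10, beside 12 higher and 10 lower of 12802 genes. At an unadjusted p under 0.05 there was 1 of the 10, *Hsph1*, with a log2 fold change of 0.77 ± 0.25 (adjusted p = 0.493). The share of all genes at that unadjusted threshold was not counted. The values of the 10 ran from -0.47 ± 0.32 (*Hsp90aa1*) to 0.77, with a median of 0.38 beside 0.01 for all genes. Only *Hsp90aa1* and *Hspa1b* (-0.25 ± 0.42, adjusted p = 0.946) were below 0, and without Elf4-/--Control replicate 1 the value of *Hspa1b* was 0.12. Both Elf4-/- libraries were above both WT libraries for *Hspa1a*, *Hspa8*, *Hsph1*, *Dnajb1*, *Hspb1*, *Hspd1* and *Hspe1*. For *Hspa1b*, *Hsp90aa1* and *Hsp90ab1* the genotypes overlapped. The share of all genes without overlap under control diet was not counted.

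Under alcohol, the comparison by which the genes were picked, the log2 fold change of Elf4-/- over WT was -2.70 ± 0.39 for *Hspa1b*, which corresponds to a 6.48-fold lower level. *Hspa1a* followed with -1.22 ± 0.58, *Dnajb1* with -1.03 ± 0.31, *Hsph1* with -0.86 ± 0.23 and *Hspa8* with -0.57 ± 0.36. These 5 genes were lower in both Elf4-/- libraries than in either WT library, beside 21.4% of all genes tested. Of the 10, 0 were higher in that way. All 5 belong to the HSP70 cycle, but the pattern was neither limited to that cycle nor shared by all of it. Of the J-domain genes named below, *Dnajb6* was lower in that way and *Dnajc7* higher, while *Dnaja1*, *Dnaja2* and *Dnajb2* overlapped. *Bag1*, *Bag3* and *Hspa2* were lower in that way too. Outside the cycle *Cct3*, *Cct4*, *Cct5*, *Cdc37*, *Ptges3*, *Cryab* and the mitochondrial *Hspa9* were lower in that way, and *Stip1* and *Unc45a* were higher. The other genes of the chaperone lists named below overlapped. For the other 5 of the 10 genes the groups overlapped. Their values were -0.18 ± 0.36 for *Hspb1*, -0.11 ± 0.23 for *Hsp90ab1*, 0.02 ± 0.26 for *Hspd1*, 0.12 ± 0.32 for *Hsp90aa1* and 0.20 ± 0.27 for *Hspe1*. The median of the 10 was -0.37, with 7 below 0, beside 0.00 for all genes. Scaled by library totals instead, all 10 were below 0, including *Hsp90aa1*, *Hspd1* and *Hspe1*, but the median of all genes itself then moved to -0.23. Of all genes, 0.143% passed edgeR's test in either direction for this comparison. The values depended on the library taken for Elf4-/-. Without replicate 1 of Elf4-/--EtOH they were -2.17 for *Hspa1b*, -0.60 for *Dnajb1* and -0.06 for *Hspa8*, and without replicate 2 they were -3.58, -1.66 and -1.34. *Hspb1* moved from -1.0 without replicate 1 to 0.34 without replicate 2.

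The Elf4-/--EtOH libraries disagreed on these genes more than those of any other group. The difference between the replicates in log2 CPM had an SD over the 10 genes of 1.002 in Elf4-/--EtOH, 0.481 in WT-Control, 0.277 in Elf4-/--Control and 0.194 in WT-EtOH. Over all genes the corresponding SD was 0.786, 0.698, 0.516 and 0.476. Replicate 1 of Elf4-/--EtOH was the lower one for 4 genes and the higher one for 6. The differences were -1.36 for *Hspa1b*, -1.27 for *Hspa8*, -1.02 for *Dnajb1* and -0.33 for *Hsph1*. On the other side stood *Hspb1* with 1.35, *Hspa1a* with 1.11 on 11 and 5 counts, *Hsp90aa1* with 0.82, *Hspe1* with 0.60, *Hspd1* with 0.57 and *Hsp90ab1* with 0.25. The near-identical pair *Hspa1a* and *Hspa1b* thus lay on opposite sides.

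**Figure D4:**
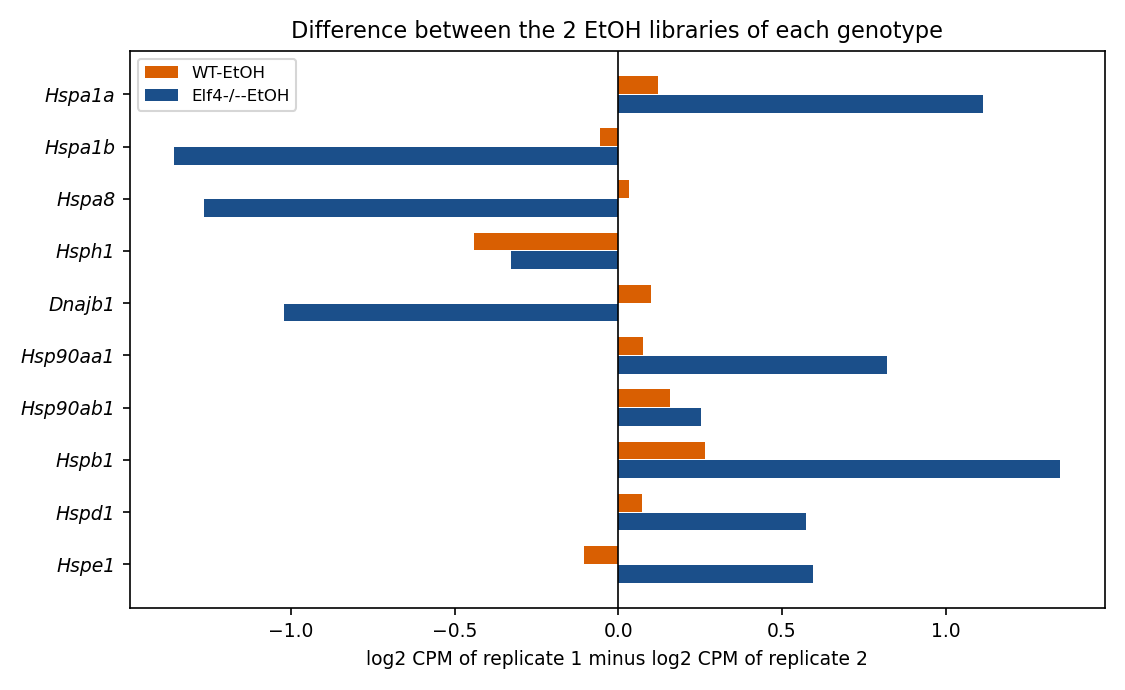
Difference in log2 CPM between replicate 1 and replicate 2 of the EtOH groups for each heat shock protein gene, in WT-EtOH (orange) and Elf4-/--EtOH (blue). The blue bars run from -1.36 (*Hspa1b*) to 1.35 (*Hspb1*), and the orange bars stay between -0.44 (*Hsph1*) and 0.26 (*Hspb1*).

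Some genes of the circadian clock and some immediate early genes also differed between the Elf4-/--EtOH libraries. *Arntl*, a core clock activator, had 13.5 CPM in Elf4-/--EtOH replicate 1 and 1.59 in replicate 2, and *Dbp*, a clock output, had 19.8 and 92.3, beside 16.8 and 66.5 in WT-EtOH. *Egr1*, an immediate early gene, had 59.6 and 5.57 CPM, and *Fos* had 7.81 and 1.99. The clock genes *Per1* (61.5 and 56.0 CPM) and *Ciart* (29.6 and 26.3) and the immediate early gene *Ier2* (29.8 and 28.0) lay close together in the same libraries. With the diet averaged over genotypes, 7 of 9 clock genes of the *Per* and *Dbp* phase were lower and 0 higher, and 2 of 4 of the *Bmal1* phase were higher. By the same test, 14.1% of all genes were higher and 13.8% lower. The summed level of the *Per* and *Dbp* phase was 1331 to 1353 CPM in WT-Control, 462 to 770 in WT-EtOH, 1507 to 1658 in Elf4-/--Control and 444 to 780 in Elf4-/--EtOH. That of the *Bmal1* phase was 42.9 to 53.3, 61.2 to 68.0, 38.5 to 43.4 and 47.1 to 83.7 CPM in the same order. The cold-inducible RNA-binding genes *Cirbp* and *Rbm3*, which fall when body temperature rises, summed to 51.9 to 62.0 CPM over all libraries, and 0 of 2 passed the test. Between replicates 1 and 2 of Elf4-/--EtOH they differed in opposite directions, with 27.1 and 14.2 CPM for *Cirbp* and 24.9 and 38.3 for *Rbm3*. Of 9 immediate early genes tested, 3 were higher and 3 lower, and their sum ran from 357 to 367 CPM in WT-Control, 170 to 189 in WT-EtOH, 204 to 344 in Elf4-/--Control and 186 to 419 in Elf4-/--EtOH. Without Elf4-/--EtOH replicate 1, *Nr1d2*, *Arntl* and *Atf3* lost their calls over both genotypes. The part of these genes in the results above was not tested.

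Markers of other liver cells also differed between the groups. The 7 Kupffer cell markers summed to 181 to 246 CPM in WT-Control, 565 to 629 in WT-EtOH, 168 to 176 in Elf4-/--Control and 229 to 232 in Elf4-/--EtOH. As for *Hspa1b*, the WT-EtOH libraries stood above the rest, and in WT all 7 passed the test as higher under EtOH, against 1 in Elf4-/- and 5 over both genotypes. Of all genes, 10.8% were called higher in WT, 1.71% in Elf4-/- and 14.1% over both. Fewer calls in Elf4-/- were thus common to all genes. The 5 endothelial markers summed to 39.9 to 66.2 CPM in WT-Control, 162 to 204 in WT-EtOH, 98.6 to 100.2 in Elf4-/--Control and 93.8 to 144 in Elf4-/--EtOH, with 5 of 5 higher in WT, 0 in Elf4-/- and 4 over both. The 5 stellate cell markers summed to 26.9 to 67.3, 247 to 326, 90.1 to 119 and 195 to 315 CPM in the same order of groups, with 4 of 5 higher in WT and over both, and 0 in Elf4-/-. Their sums did not overlap between the diets in either genotype. Without Elf4-/--EtOH replicate 1, 7 Kupffer cell and 3 stellate cell markers were called higher over both genotypes, and the 1 Kupffer cell call in Elf4-/- and the 1 neutrophil call over both were lost. The 5 hepatocyte markers summed to 50038 to 70038, 29705 to 35692, 61882 to 69381 and 39837 to 50597 CPM, and 1 of 5 was lower in WT and over both. Of all genes, 10.8% were called lower in WT and 13.8% over both. Neutrophil markers summed to at most 13.2 CPM, with *Ly6g* and *Camp* not listed or at 0, and 1 of 3 tested was higher over both. The share of counts from mitochondrial genes was 12.5% and 10.8% in WT-EtOH against 33.7% and 23.4% in WT-Control, and 22.1% and 18.3% in Elf4-/--EtOH against 18.7% and 18.5% in Elf4-/--Control. Whether the marker genes responded differently in the genotypes, and the part of cell composition and of this share in the heat shock protein values, was not tested.

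The other chaperones and their partners were read from 8 lists with 63 genes, of which 59 were tested. The diet averaged over genotypes raised 23 and lowered 7 of them, beside the 14.1% higher and 13.8% lower of all genes, with a median log2 fold change of 0.41 beside 0.01 for all genes. The genotype under control diet changed 0 of 59 by edgeR's test and 0 by DESeq2. At an unadjusted p under 0.05 there were 4, and the share of all genes at that threshold was not counted. In WT the diet raised 19 and lowered 4, beside 10.8% and 10.8% of all genes, and in Elf4-/- it raised 2, *Cct3* and *Cct5*, and lowered 1, *Hsf4*, beside 1.71% and 1.18%. Without Elf4-/--EtOH replicate 1, *Hspa2*, *Hspa4l*, *Bag5*, *Tcp1* and *Hsf1* lost their calls over both genotypes and *Dnajb2* gained one, and *Hsf4* lost its call in Elf4-/-. Without WT-EtOH replicate 2 or Elf4-/--Control replicate 1 the 23 became 14 and 13. The 7 became 4 without WT-Control replicate 2, 2 without WT-EtOH replicate 2, and 3 without WT-EtOH replicate 1 or either Elf4-/--Control library. In WT the 19 became 8 without WT-Control replicate 1, 6 without WT-EtOH replicate 1 and 7 without WT-EtOH replicate 2. The calls in Elf4-/- for these lists ran from 0 to 10 higher and 0 to 3 lower over the libraries left out.

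The partners of HSP70 and HSP90 were higher under EtOH in part. Of 9 J-domain proteins 3 rose, *Dnaja1* (1.06 ± 0.14, adjusted p = 0.00106), *Dnajb6* (0.69 ± 0.12) and *Dnaja2* (0.55 ± 0.14), and *Dnajc7* fell (-0.49 ± 0.13). Of 5 nucleotide exchange and BAG factors 3 rose, *Bag3* (0.78 ± 0.15, adjusted p = 0.00511), which links HSP70 to autophagy, *Bag5* (0.64 ± 0.21) and *Bag1* (0.61 ± 0.15). Among 13 HSP90 co-chaperones 5 rose, led by *Stip1* (0.85 ± 0.14, adjusted p = 0.00297), which hands clients from HSP70 to HSP90, *Ptges3* (0.76 ± 0.14) and *Cdc37* (0.74 ± 0.18), the adaptor for kinases, while the myosin chaperone *Unc45a* fell (-0.68 ± 0.14). The HSP70 and HSP110 relatives had 3 of 8 higher and 1 lower. *Hspa2* rose by 1.92 ± 0.53 (adjusted p = 0.0244) from 1 and 2 counts in WT-Control, so its size depends on the prior count. *Hspa13* (0.89 ± 0.16) and *Hspa4l* (0.66 ± 0.21) rose, and *Hspa1l*, which lies beside *Hspa1a* and shares 71.93% of its exon bases with *Gm10501* on the other strand, fell (-1.12 ± 0.26). None of the 3 other small heat shock proteins tested (*Cryab*, *Hspb6* and *Hspb8*) passed by edgeR's test, with values from 0.24 to 0.58, so *Hspb1* was the 1 small heat shock protein called. These averages hide unlike values for *Dnajb6* (1.19 in WT, 0.18 in Elf4-/-), *Bag3* (1.15, 0.41), *Unc45a* (-1.18, -0.19) and *Hspa2* (3.61, 0.24). *Stip1* (0.85 in WT, 0.85 in Elf4-/-), *Dnaja2* (0.59, 0.51) and *Hspa13* (0.89, 0.89) had like values. The difference between the genotypes was not tested.

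The chaperonin of the cytosol, TRiC, had the largest share of calls among these 8 lists. It folds actin and tubulin, and 6 of its 8 subunits rose, among them *Cct5* (1.58 ± 0.15, adjusted p = 0.000329), *Cct3* (1.15 ± 0.13) and *Cct4* (0.90 ± 0.14). *Tcp1*, the subunit that gave the complex its name, was lower (-0.60 ± 0.18, adjusted p = 0.0352), and 11.35% of its exon bases overlap *Acat3* on the other strand. In mitochondria 3 of 9 chaperone and protease genes rose, *Clpx* (1.52 ± 0.35), *Hspa9* (1.16 ± 0.15, adjusted p = 0.000896), the mitochondrial HSP70 that works beside the HSP60 chaperonin, and its exchange factor *Grpel1* (0.80 ± 0.20).

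Of the 4 genes for heat shock factors and their regulator, 3 were lower under EtOH and 0 higher. *Hsf1*, which encodes the main activator of the response, had a log2 fold change of -0.43 ± 0.14 (adjusted p = 0.0436), *Hsf2* of -0.54 ± 0.15 (adjusted p = 0.0226) and *Hsf4* of -1.50 ± 0.22 (adjusted p = 0.00159). *Hsbp1*, which binds HSF1 trimers, had 0.26 ± 0.13 (adjusted p = 0.173). *Hsf1* had 20.7 and 17.7 CPM in WT-EtOH against 22.9 and 27.8 in WT-Control, and 19.6 and 19.8 in Elf4-/--EtOH against 26.5 and 27.6 in Elf4-/--Control. Scaled by library totals, *Hsf1* (-0.23, adjusted p = 0.271) and *Hsf2* (-0.34, adjusted p = 0.146) did not pass, and *Hsf4* did (-1.29, adjusted p = 0.00352). *Hsf1* also missed the threshold by DESeq2 (adjusted p = 0.121), with the replicate block (0.0595), with no filter (0.0681) and without Elf4-/--EtOH replicate 1 (0.0637). HSF1 is controlled mainly at the protein level, which was not measured here. Within WT, *Hsf4* passed (-1.46 ± 0.31, adjusted p = 0.0116) and *Hsf1* (-0.40 ± 0.20, adjusted p = 0.171) and *Hsf2* (-0.39 ± 0.21, adjusted p = 0.207) did not.

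**Figure D5:**
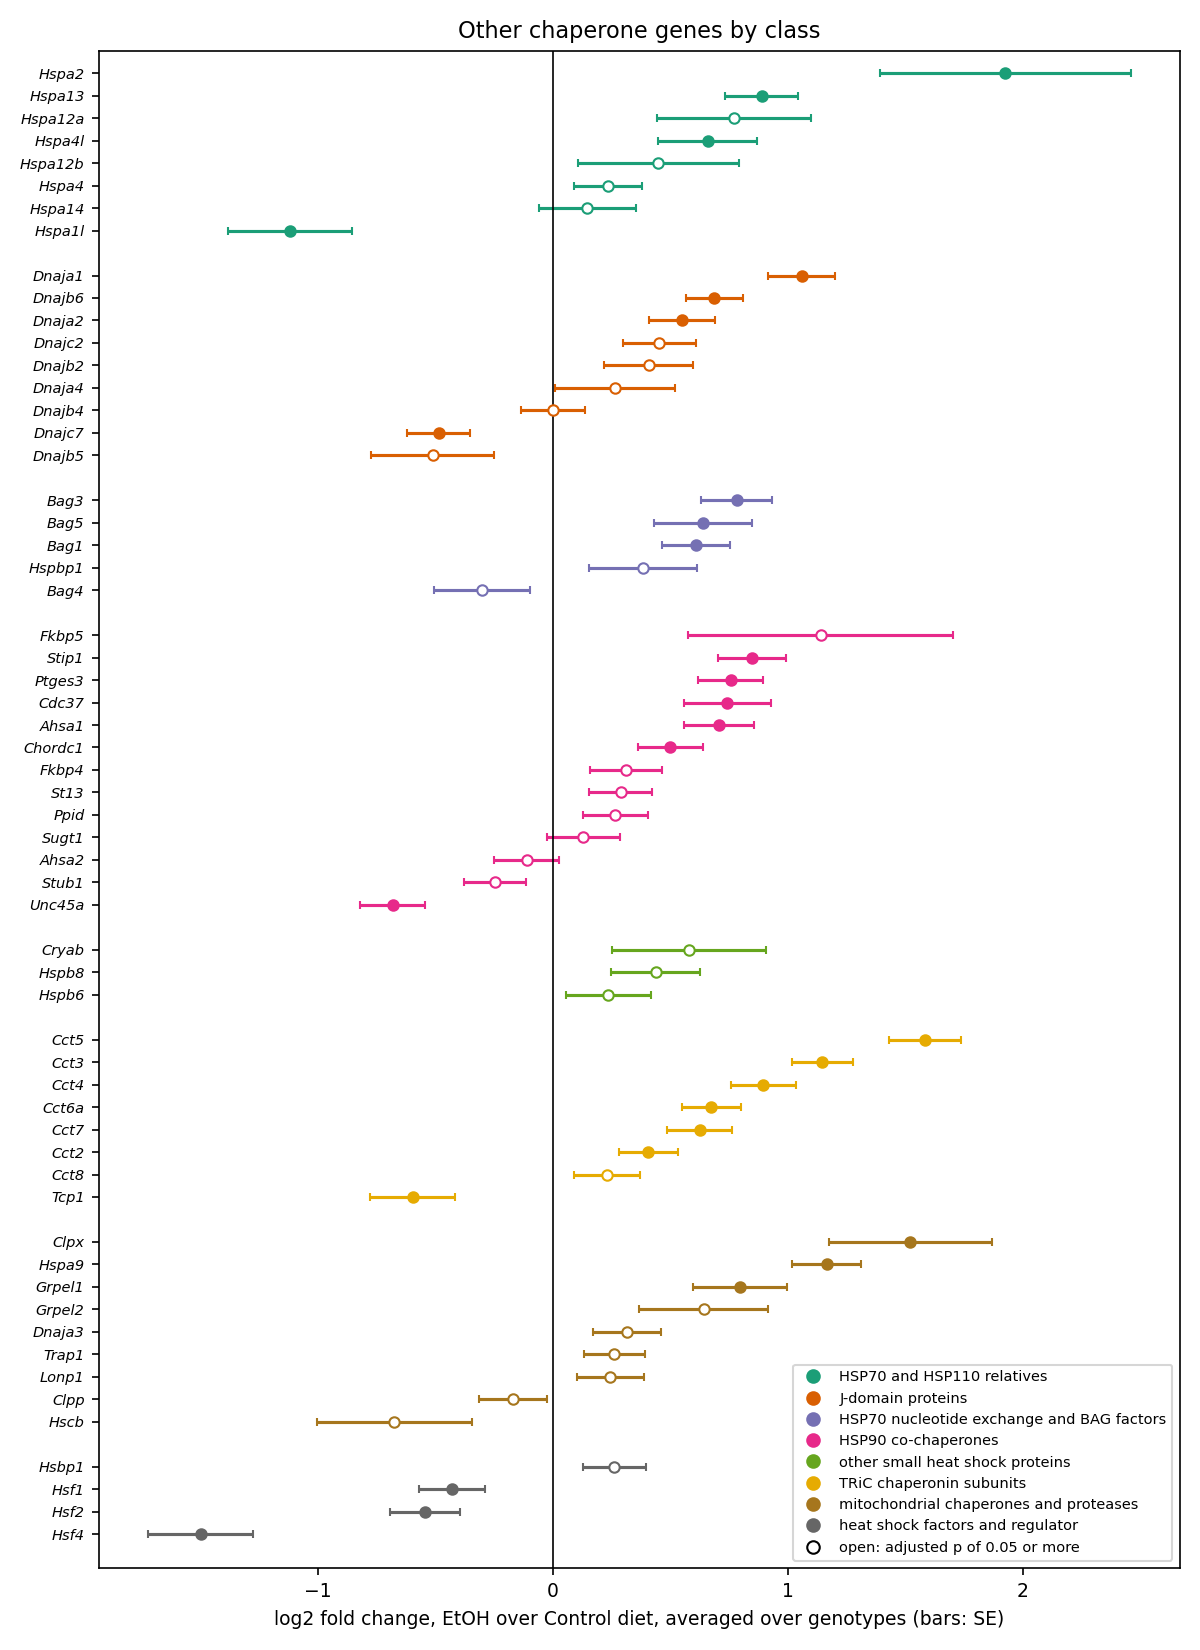
Log2 fold change of EtOH over Control, averaged over genotypes, for the 59 other chaperone genes tested, coloured by class. Points are the fitted values, bars their SE, and open points have an adjusted p of 0.05 or more. *Hspa2* (1.92) and *Cct5* (1.58) lie farthest to the right, and *Hsf4* (-1.50) and *Hspa1l* (-1.12) farthest to the left.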

How the data were processed

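Per the labels and the study's methods, the authors mapped paired-end reads to mm10 with HISAT2, sorted them with SAMtools, counted reads per gene with HTSeq and tested them with DESeq2, with versions, annotation and strand setting not given in the sources used here. The deposited table holds these whole-number counts per gene symbol, not normalized, with 1 column for each of the 8 libraries.

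The members, gene lists and tests were chosen with earlier results of these data known. Genes that failed filterByExpr by group were removed, which left 13993 of 19267 and kept at least 99.76% of each library's counts. All 8 libraries entered 1 edgeR 4.0.16 quasi-likelihood fit (R 4.3.3) with 4 groups, TMM scaling, no covariate and a threshold of 0.05 on Benjamini-Hochberg adjusted p. CPM were TMM-scaled, with a prior count of 2 added for log2 CPM. An SE is the absolute log2 fold change divided by the square root of F. On simulated data for the diet averaged over genotypes (13592 genes), the fit recovered 71% of 100 genes changed by log2 1 and 100% of 100 changed by log2 2, with 8 false calls.

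Named were all 10 members, up to 3 called genes per direction and chaperone list, every heat shock factor gene, the 5 genes most like *Hspa1b* among those with a mean of at least 50 counts, check-list genes set beside a result, and *Elf4*. *Per1*, *Ciart* and *Ier2*, and genes that lost or gained a call without a library, were chosen after their values were seen. *Hsbp1*, *Cryab*, *Hspb6*, *Hspb8* and *Acat3* and the other overlapping genes were named to complete a count or a position. Alternatives were DESeq2 1.42.0, its size factors, library totals, no filter, a mean of at least 10 counts, a replicate block, fits of the 4 libraries compared, *Hspa1a* and *Hspa1b* summed, and leaving out each library. Levels per kb used the merged exons of GENCODE M21 and, added after seeing the data, the longest coding transcript. With 1 library left in a group, it was assumed to vary like the others. PCR copies were not separated.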

Additional observations from a re-analysis of the deposited data

How the results depend on the processing

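With the diets averaged over genotypes, 8 members were higher under every scaling, filter, DESeq2 and the replicate block, and 7 to 9 over the libraries left out. For the other chaperones, leaving out a library gave 13 to 26 higher and 2 to 7 lower. In WT these ranges were 5 to 8 members higher, and 6 to 24 other chaperones higher and 0 to 5 lower. In Elf4-/- they were 0 to 5 members higher and 0 to 1 lower, and 0 to 10 others higher and 0 to 3 lower. Under library totals 2 members were higher in Elf4-/-, 35 other chaperones were higher and 2 lower in WT, and 3 were lower over both genotypes. That scaling moved the median of all genes to 0.21 over both genotypes, 0.44 in WT, 0.24 for the genotypes under Control and -0.23 under EtOH, beside medians of the members of 1.46, 1.98, 0.60 and -0.60. All genes called higher and lower then numbered 2981 and 1058 over both genotypes, against 1978 and 1938, and 3416 and 634 in WT, against 1518 and 1507. Fits of the 4 Elf4-/- libraries alone left 0 members and 0 other chaperones higher and 0 lower, which uses fewer samples, and DESeq2 called 6 other chaperones higher in Elf4-/-.

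Replicate numbers did not pair the libraries, since deviations of same-numbered libraries correlated from -0.11 to 0.06. The replicate block left 1 member higher and 0 other chaperones lower in Elf4-/-, and it called *Hsp90aa1* in WT (adjusted p = 0.0380). Values that changed sign when a library was left out ran from -0.016 to 0.66 for *Hspa1a* and -0.0070 to 0.64 for *Hspa8* over both genotypes, -0.66 to 0.12 for *Hspa1b* under Control, and -0.89 to 0.40 for *Hspa8*, -0.50 to 0.56 for *Dnajb1*, -0.49 to 0.92 for *Hspa1b* and -1.12 to 0.24 for *Hspa1a* in Elf4-/-. The cause of these changes was not tested. Precision is limited by 2 libraries per group and, for *Hspa1a*, by 5 to 26 counts.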

Other observations

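The genes whose log2 CPM followed that of *Hspa1b* most closely over the 8 libraries, among the 9398 genes that averaged 50 counts or more, were *Gmfg* (Pearson's r = 0.965, Spearman's rho = 0.881), *D10Wsu102e* (0.965 and 1), *Ptp4a2* (0.956 and 0.738), *Timm22* (0.955 and 0.857) and *Gclm* (0.953 and 0.905), the modifier subunit of the enzyme that limits glutathione synthesis. These correlations describe 8 libraries that share groups and scaling, and carry no p. *Gclm* had 291 and 295 CPM in WT-EtOH against 222 and 234 in WT-Control. In Elf4-/--EtOH it had 227 and 251, against 199 and 234 in Elf4-/--Control. Both WT-EtOH libraries were the highest, as for *Hspa1b*, which follows from choosing the gene by its likeness to *Hspa1b*. Of the other members, *Hspa1a* averaged fewer than 50 counts and was not ranked. The ranks of the rest include the EtOH libraries by which *Hspa1b* was picked, so they are not independent of that comparison. *Dnajb1* ranked 16 (0.925), *Hspa8* 307 (0.776) and *Hsph1* 402 (0.750). Lower ranks were held by *Hsp90ab1* (1254, 0.60), *Hspb1* (1710, 0.527), *Hspd1* (1880, 0.503), *Hspe1* (2371, 0.424) and *Hsp90aa1* (2530, 0.395).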
